A study of Homo sapiens with 9 samples.

Results

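A band of the short arm of chromosome 6 that holds the major histone gene clusters and the major histocompatibility complex (MHC) was examined for γH2AX, the phosphorylated form of the histone variant H2AX that marks chromatin around DNA breaks. The band was chosen by position, as all γH2AX regions on chromosome 6 with a midpoint between 25700001 and 34000000 of the human genome build hg19. It held 2885 of the 234983 regions in 8 deposited lists, on 0.273% of the chromosome length surveyed. The histone block (25700001 to 28000000) held 711 regions, the zinc-finger and extended class I block (28000001 to 29600000) held 477, the MHC block (29600001 to 33400000) held 1426, and the stretch from 33400001 to 34000000 held the other 271.

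The study asked how loss of FANCL, which ubiquitinates FANCD2 and FANCI in the Fanconi anaemia repair pathway, bears on DNA damage and blood cell differentiation. Chromatin immunoprecipitation and sequencing (ChIP-seq) of γH2AX was done in K562, an established human myelogenous leukaemia line that PMA, a phorbol ester, drives towards megakaryocyte-like cells. The 4 groups, with 2 libraries each, were FANCL-knockout cells with 5 nM PMA for 72 h (KO PMA), FANCL-knockout cells with mock treatment for 72 h (KO mock), wild-type cells with PMA (WT PMA) and wild-type cells with mock treatment (WT mock). A single input library from WT mock cells served all 8 lists, so copy number or open chromatin that differs in KO or PMA-treated cells was not corrected. All groups are the same cell line, and whether the KO line is 1 clone is not given in the sources used here. The lists hold no measure of FANCL, so the genotype rests on the labels. The labels do not say that replicates were separate cultures, so each p-value takes in only the scatter of these libraries, possibly a technical one.

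Replication-dependent histone genes lie in tandem clusters, are transcribed in S phase and end without a poly(A) tail. The MHC is divided into class I, class II and the class III region between them. HLA molecules of class I present peptides from inside the cell. Those of class II present peptides from outside and are largely silent in K562, though expression was not measured here. Class III is one of the most gene-dense stretches of the human genome, with complement, cytokine, splicing and repair genes. γH2AX spreads from a break along the chromatin on both sides, so its regions report a neighbourhood rather than a break site.

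No genome or annotation of build hg19 was used, so no region was assigned to a gene. Genes named below are landmarks of a 100 kb bin or stretch, from general knowledge of the band, and the 13 stretches named stood in the same order in RefSeq (GRCh38.p14). Between the landmark genes, RefSeq lists 27 core and 5 linker histone genes in the first histone cluster, 5 core histone and 10 tRNA genes in the second, and 15 core histone genes and 1 linker histone gene in the last. It lists 10 zinc-finger genes among the 12 coding genes of the zinc-finger stretch, 12 olfactory receptor genes, 58 coding genes in class III and 13 HLA genes in class II. The gene content of the stretches also showed in their promoters, of which 3 are printed here from RefSeq (GRCh38.p14) because their genes stand in stretches described below: H1-4, a linker histone gene of the first cluster, MDC1, whose protein binds γH2AX at breaks and which lies in the MHC block, and MSH5, a class III gene for a meiotic mismatch-repair homologue. Each runs 5′ to 3′ from 250 bases before the gene's start, and capitals mark TATAAA and CCAAT or their reverse complements TTTATA and ATTGG.
H1-4: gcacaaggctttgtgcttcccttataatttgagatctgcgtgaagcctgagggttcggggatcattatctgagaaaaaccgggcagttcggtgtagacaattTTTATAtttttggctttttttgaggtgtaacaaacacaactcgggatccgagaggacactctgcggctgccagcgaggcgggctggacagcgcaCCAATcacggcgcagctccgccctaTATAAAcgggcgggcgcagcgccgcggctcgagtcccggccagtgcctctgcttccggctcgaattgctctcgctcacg
MDC1: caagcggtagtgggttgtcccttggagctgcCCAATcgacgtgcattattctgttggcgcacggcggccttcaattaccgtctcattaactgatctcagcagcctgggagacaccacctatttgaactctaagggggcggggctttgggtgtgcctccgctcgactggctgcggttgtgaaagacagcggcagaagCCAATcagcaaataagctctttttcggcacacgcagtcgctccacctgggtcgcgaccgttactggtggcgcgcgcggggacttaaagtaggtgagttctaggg
MSH5: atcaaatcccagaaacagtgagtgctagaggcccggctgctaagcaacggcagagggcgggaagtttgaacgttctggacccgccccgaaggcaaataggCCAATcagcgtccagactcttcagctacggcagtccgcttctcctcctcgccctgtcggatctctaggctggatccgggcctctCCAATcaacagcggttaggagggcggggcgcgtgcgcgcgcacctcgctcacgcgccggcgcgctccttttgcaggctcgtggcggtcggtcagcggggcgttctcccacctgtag
The H1-4 promoter had 56.0% G or C with 2 matches to TATAAA and 1 to CCAAT, MDC1 had 57.3% with 2 matches to CCAAT, and MSH5 had 64.0% with 2 matches to CCAAT. In the first histone cluster 18 of 31 promoters held TATAAA and 26 of 31 held CCAAT on either strand. In class III 11 of 52 held TATAAA (21.2%) and 19 of 52 held CCAAT (36.5%), against 12% and 35.7% of all 27305 promoters in the table. Median G and C content was 59.0% in class III and 41.3% in the first histone cluster, against 58.3% over all promoters. These matches describe letters, and no γH2AX region was placed on a promoter.

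Sequencing depth ran from 15.6 to 27.2 M tags, and KO libraries (15.6 to 18.3 M) were mostly shallower than WT libraries (up to 27.2 M). The caller set a tag threshold for each library, which came to between 5.89 and 7.69 tags per 10 M and was lowest in the deepest library. Lists held from 11959 to 42896 regions. For comparisons of the band as a whole or of a block, covered length was the summed length of regions with their midpoint inside. It was compared by two-sided exact permutation tests on the log2 scale, for which 2 libraries against 2 give no p below 0.333. KO against WT over both treatments, shuffled within treatment, gives none below 0.0556. Over all 65 such comparisons no Benjamini-Hochberg adjusted p was below 0.374.

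γH2AX covered much more of the band in FANCL-knockout cells than in wild-type cells, most of all after PMA, and most of this excess lay in the MHC block. The band's covered length was 885 and 749 kb in the KO PMA libraries, 257 and 235 kb in KO mock, 216 and 219 kb in WT PMA, with 116 and 86.6 kb in WT mock. KO PMA stood above all other libraries, KO mock above WT PMA by a small margin, and WT mock lowest, with no overlap between groups. The means were 817 ± 95.8 kb in KO PMA, 246 ± 16.1 kb in KO mock, 218 ± 1.92 kb in WT PMA and 101.3 ± 20.7 kb in WT mock (SD, n = 2 each). KO exceeded WT 3.74-fold after PMA and 2.45-fold after mock treatment (exact permutation p = 0.333 each), and 3.03-fold over both treatments (exact permutation p = 0.0556, the smallest possible). Whole lists differed too. Their covered length was 42.6 and 34.6 Mb in KO PMA and 17.5 and 17.6 Mb in KO mock. It was 31.5 and 24.9 Mb in WT PMA, and 9.85 and 8.42 Mb in WT mock.

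Measured as a share of each library's covered length, which sets the band against the rest of the genome, the band took 2.12% in KO PMA, 1.399% in KO mock, 0.784% in WT PMA and 1.10% in WT mock. An even spread would give it 0.273%, so the band was enriched 7.75-fold, 5.12-fold, 2.87-fold and 4.03-fold in the same order of groups. In share, KO exceeded WT 2.72-fold after PMA and only 1.27-fold after mock treatment. The share was higher in KO PMA than in KO mock (log2 difference 0.60) and lower in WT PMA than in WT mock (log2 difference -0.50). The rest of chromosome 6 behaved otherwise. Its covered length was 1675 ± 237 kb for KO PMA against 2725 ± 540 kb for WT PMA, with a log2 difference of -0.70, and 831 ± 90.4 kb in KO mock and 769.7 ± 171 kb in WT mock (log2 difference 0.12, exact permutation p = 0.667, overlapping groups).

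**Figure D1:**
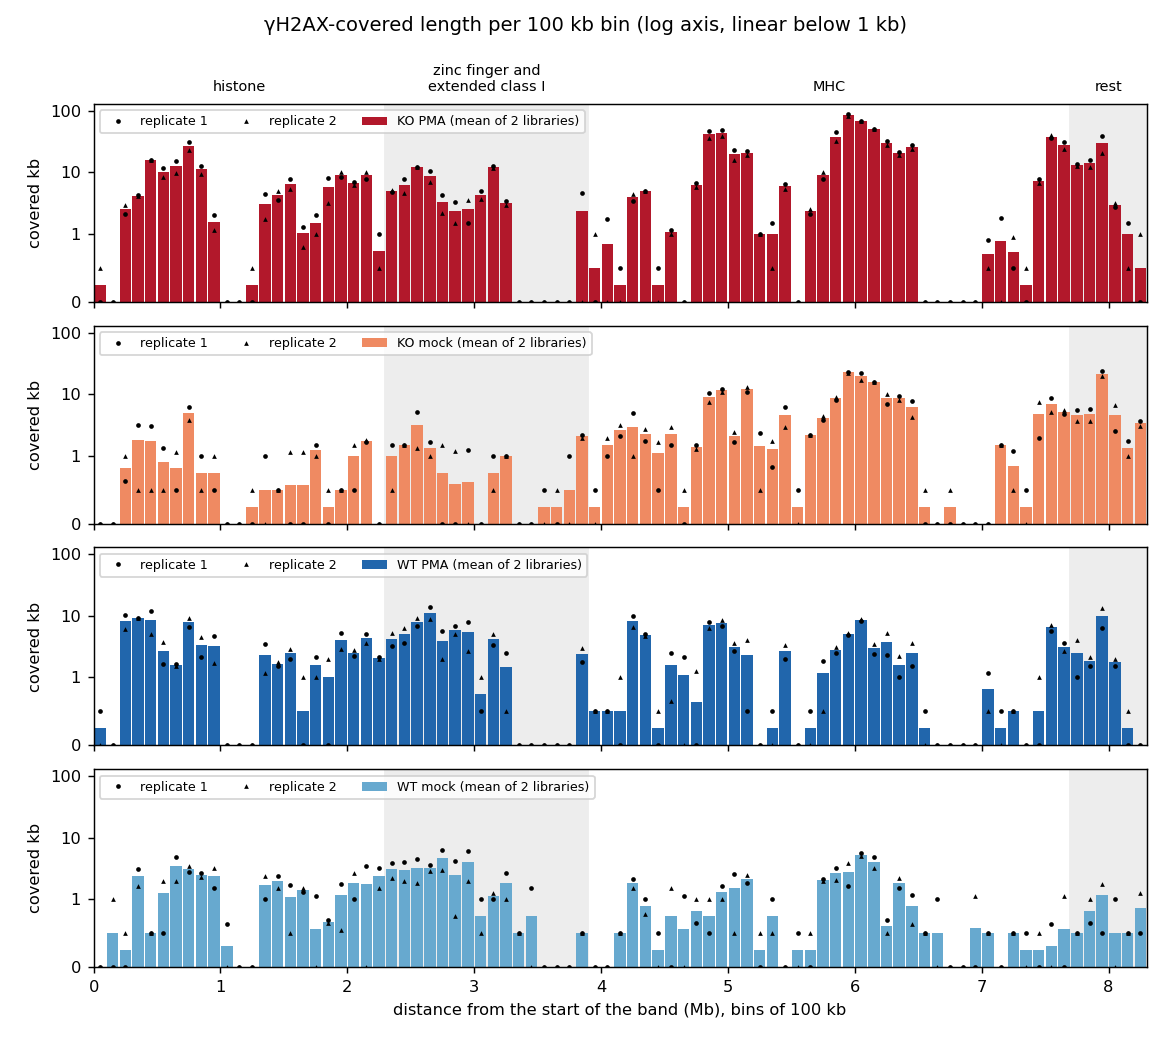
Covered length of γH2AX regions in each 100 kb bin of the band (vertical axis in kb, logarithmic above 1 kb) against distance from the band's start (Mb), for KO PMA, KO mock, WT PMA and WT mock from top to bottom; bars are means of 2 libraries, and points are the libraries. The tallest KO PMA bars, in the MHC block, reach 90.6 and 82.9 kb of a bin, where the WT mock libraries have 1.63 and 3.86 kb.

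The MHC block carried most of the excess in KO. Its covered length was 595 and 524 kb in KO PMA, 176 and 169 kb in KO mock, 77.9 and 85.6 kb in WT PMA, with 38.4 and 35.4 kb in WT mock, and no groups overlapped. KO PMA exceeded WT PMA 6.84-fold and KO mock exceeded WT mock 4.68-fold, while PMA over mock was 3.24-fold in KO and 2.22-fold in WT (exact permutation p = 0.333 each). The block's share of covered length was 1.45 ± 0.0851% in KO PMA, 0.9804 ± 0.0354% in KO mock, 0.296 ± 0.0680% in WT PMA and 0.405 ± 0.0212% in WT mock (SD, n = 2 each). Relative to the rest of the genome the block thus held 3.47-fold more in KO than in WT over both treatments (exact permutation p = 0.0556).

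The excess was smaller or absent among regions with a high fold over input. Fold sets tags against input, so a low fold can go with many tags. The longest MHC region of KO PMA replicate 1 (31685414 to 31702173) had 597 tags per 10 M at 3.24-fold. That of KO PMA replicate 2 lay at another place (31589338 to 31607827) and had 496 tags per 10 M at 3.45-fold. The authors' fold over input of a region had a median of 3.47 and 3.72 in the KO PMA libraries and 3.71 and 3.87 in KO mock, against 4.56 and 4.38 in WT PMA and 4.14 and 4.29 in WT mock. Regions with a fold of at least 6 made up 4.90 and 11.2% of MHC regions in KO PMA, 9.09 and 8% in KO mock, 22.3 and 23.3% in WT PMA, and 16.9 and 18.5% in WT mock. Over all chromosomes KO was lower too, with 18.8 and 21.3% in KO PMA and 19.5 and 20.6% in KO mock. WT PMA had 29.8 and 30.6% there, and WT mock 32.3 and 28.3%. The median fold over all chromosomes ran from 4.07 to 4.37 in KO and from 4.75 to 4.92 in WT. With regions of such a fold alone, the band's log2 difference was 0.10 between KO PMA and WT PMA and -0.03 between KO mock and WT mock, and the MHC share differed by 0.46 between KO and WT over both treatments. The log2 difference of MHC covered length was -0.07 between KO PMA and WT PMA instead of 2.77, and 0.79 between KO mock and WT mock instead of 2.23. The input itself was denser in the MHC regions of KO libraries, at 7.21 and 7.20 input tags per kb and 10 M in KO PMA, 5.99 and 6.01 in KO mock, 3.62 and 4.32 in WT PMA, and 3.57 and 3.78 in WT mock. Over all chromosomes the same measure ran from 5.03 to 5.19 in KO and from 3.40 to 3.97 in WT. The part of input density in the difference was not tested.

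The histone block did not follow the MHC block. It was covered over 147 and 120.2 kb in KO PMA, 21.8 and 17.5 kb in KO mock, 72.1 and 62.5 kb in WT PMA, with 34.2 and 27.8 kb in WT mock. After mock treatment KO thus lay below WT (log2 difference -0.66), and after PMA above it (log2 difference 0.99), without overlap in either case. PMA over mock was 6.81-fold in KO and 2.18-fold in WT. As a share of covered length, the block took 0.346% in KO PMA and 0.112% in KO mock, against 0.240% in WT PMA and 0.339% in WT mock. The log2 difference of the share was -1.61 between KO mock and WT mock. With 1 common tag threshold for all libraries the covered length of KO mock was level with WT mock (log2 difference 0.08), while the share stayed lower (log2 difference -1.71).

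In the zinc-finger and extended class I block, covered length was 69.9 and 54.3 kb in KO PMA, 16.6 and 10.9 kb in KO mock, 56.1 and 49.1 kb in WT PMA, with 39.7 and 18.4 kb in WT mock. KO PMA and WT PMA overlapped (log2 difference 0.23, exact permutation p = 0.667), and KO mock lay below WT mock (log2 difference -1.004). The KO mock deficit turned to 0.15 on the log2 scale with the common tag threshold. PMA over mock was 4.57-fold in KO and 1.94-fold in WT. The block took 0.160% of covered length in KO PMA, 0.0783% in KO mock, 0.188% in WT PMA and 0.311% in WT mock, so its share was lower in KO than in WT after both treatments. Over both, KO had 0.470 of the WT share (exact permutation p = 0.0556).

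**Figure D2:**
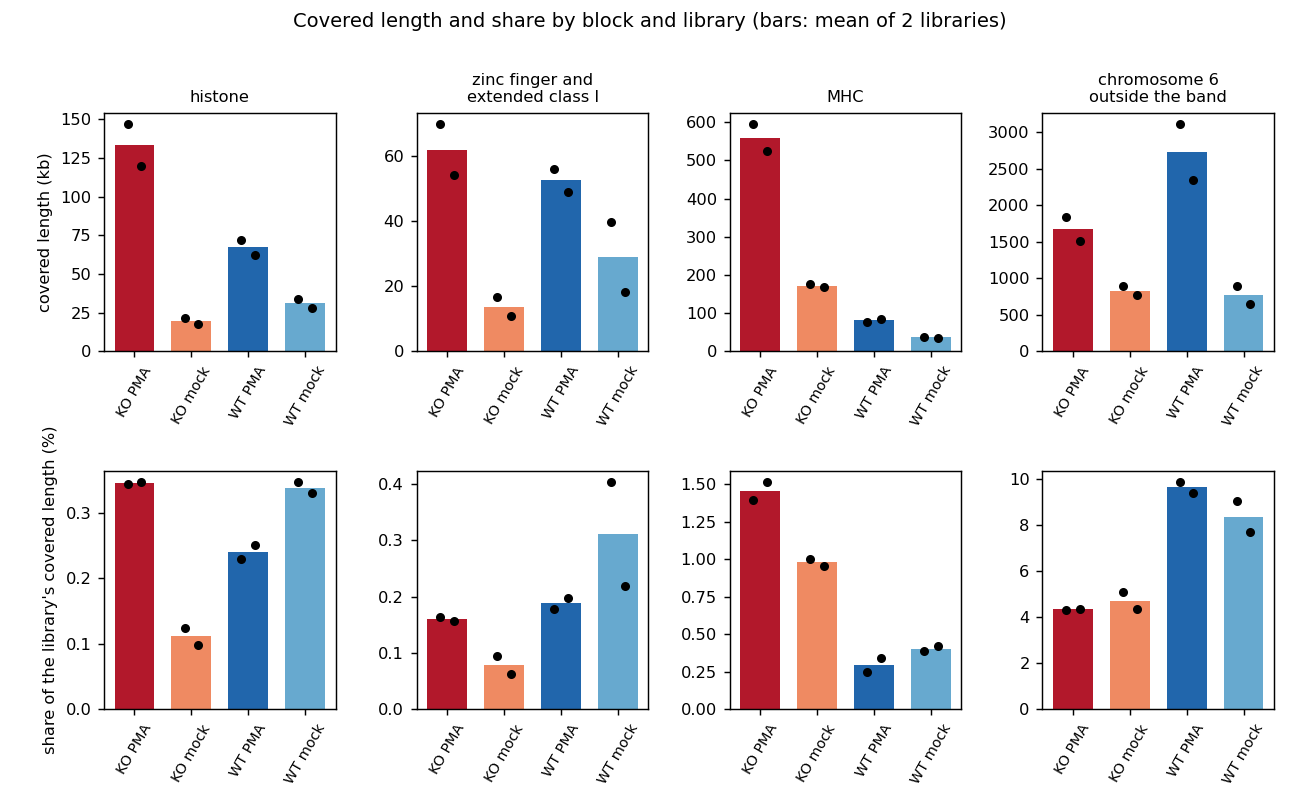
Covered length in kb (upper row) and share of the library's covered length in percent (lower row) for the histone, zinc-finger and MHC blocks and for chromosome 6 outside the band; bars are means of 2 libraries and points are libraries. KO bars stand above WT bars in the MHC panels, while in the histone and zinc-finger panels KO mock has the lowest bars, at 19.6 and 13.8 kb.

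The ratio of MHC to histone covered length, chosen after the blocks' values were seen, was higher in KO than in WT by a log2 difference of 2.89 after mock treatment, 1.79 after PMA and 2.34 over both. As it was chosen for that difference, it is given as a description, and its permutation p-values are not quoted. They are among the 65 comparisons adjusted together. With PMA over mock the ratio was lower in KO (log2 difference -1.07) and level in WT (log2 difference 0.03). With a fold of at least 6 the difference after PMA turned to -0.53, and that after mock treatment was 1.33.

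In the stretch after the MHC, up to 34000000, KO stood above WT after both treatments, as in the MHC block. BAK1, a pro-apoptotic BCL-2 family gene, and ITPR3, a calcium channel gene of the endoplasmic reticulum, are its landmarks. Covered length there was 72.9 and 50.3 kb in KO PMA, 42.7 and 37.6 kb in KO mock, 10.3 and 21.99 kb in WT PMA, with 3.65 and 5.02 kb in WT mock. KO mock exceeded WT mock 9.37-fold and KO PMA exceeded WT PMA 4.02-fold, and no groups overlapped. Unlike in the MHC block, the excess was thus larger after mock treatment than after PMA. PMA over mock was 1.51-fold in KO, and the share was lower in KO PMA than in KO mock (log2 difference -0.53).

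Bins of 100 kb located these differences. Covered length + 1 kb was compared on the log2 scale with limma over 9552 bins of the genome covered in at least 2 libraries, with Benjamini-Hochberg adjustment over all of them and a threshold of 0.05. Of the band's 83 bins 72 were tested. Log2 differences given for bins are on this scale, and the added 1 kb makes them smaller where little was covered.

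Without PMA, loss of FANCL went with more γH2AX in part of the MHC block and with no tested bin of the histone block passing upward. In KO mock against WT mock, 16 of 72 bins were higher, 13 of them among the 34 tested in the MHC block and 3 in the stretch after it, and 3 bins were lower. Over the genome 17.2% of bins were higher and 3.61% lower, so the band as a whole was near the background, but no bin of the histone and zinc-finger blocks was higher. The median log2 difference was 1.26 in the MHC block, -0.45 in the histone block and -0.71 in the zinc-finger block, against 0.29 over all bins.

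The largest increase was in the bin from 33600001 (landmark ITPR3), with 23.7 and 19.5 kb in KO mock against 0.5 and 1.78 kb in WT mock (log2 difference 3.46, SE 0.51, adjusted p = 0.00902). The KO mock libraries stood apart from WT mock, and the call was lost without either KO mock library or without WT mock replicate 1. The bin from 31600001, where BAG6 (a chaperone), CSNK2B (a casein kinase subunit) and CLIC1 (a chloride channel) are landmarks, had 23.3 and 22.5 kb in KO mock against 1.63 and 3.86 kb in WT mock (log2 difference 2.74, SE 0.30, adjusted p = 0.00389). This call held without any single library. The bin from 33200001 (landmarks RPS18, a ribosomal protein gene, and DAXX, a histone H3.3 chaperone) had 8.67 and 5.21 kb in KO mock against 0.635 and 0 kb in WT mock, a log2 difference of 2.599 (adjusted p = 0.00606). The bins from 31900001 (landmarks CFB, a complement factor, and NELFE, a subunit of the elongation factor NELF) and 30500001 (landmarks GNL1 and ABCF1) had log2 differences of 2.56 and 2.50. The increase from 31900001 missed the threshold without KO mock replicate 2.

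The bins lower in KO mock were thinly covered. The bin from 27900001 was bare in both KO mock libraries and had 3.21 and 1.5 kb in WT mock (log2 difference -1.70, adjusted p = 0.0188). The bin from 27100001, in the second histone cluster, had 0.5 kb in each KO mock library against 2.39 and 1.5 kb in WT mock (log2 difference -0.96, adjusted p = 0.0499). Both calls were lost without either KO mock library and without WT mock replicate 1, and the call from 27100001 also without WT mock replicate 2. The last of them, from 29000001 among the olfactory receptor genes, rests on 1 region of 500 bp in each WT mock library and none elsewhere, and the equal lengths gave it a small error (log2 difference -0.59, SE 0.04, adjusted p = 0.000845). The lower call of this bin in WT PMA against WT mock rests on those regions too. In all, 19 bins passed in either direction, and the count was 9, 8 and 9 without KO mock replicate 1, KO mock replicate 2 and WT mock replicate 1.

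After PMA, as after mock treatment, the excess in KO took in all 7 bins of class III. In KO PMA against WT PMA, 26 of 72 bins were higher (36.1%) and 1 was lower, against 15.9% higher and 21.9% lower over the genome. The median log2 difference was 0.77 in the band and -0.21 over all bins. The direction over the genome turned with scaling: centring each library on its median over bins moved the median of all bins by 0.43, with 22.1% of them higher and 13.3% lower, and in the band 36 bins were higher and 0 lower. Of the tested bins, 17 of 34 were higher in the MHC block, 5 of 20 in the histone block and 2 of 6 after the MHC. In the zinc-finger block 2 of 12 were higher (16.7%), near the 15.9% over the genome.

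The 5 largest increases all lay in class III. The bin from 31600001 had 90.6 and 82.9 kb of its 100 kb covered in KO PMA, against 4.83 and 5.33 kb in WT PMA (log2 difference 3.85, SE 0.30, adjusted p = 0.000962). In mean covered length it ranked 1 among all bins of the genome in KO PMA and 1671 in WT PMA. The bin from 31800001, with landmarks EHMT2 (a histone H3 lysine methyltransferase), NEU1 (a sialidase) and C2 (a complement component), had 51.4 and 50.6 kb in KO PMA against 2.41 and 3.50 kb in WT PMA (log2 difference 3.73, adjusted p = 0.000681). The bin from 31500001, with landmarks DDX39B (an RNA helicase of splicing and export) and the cytokine genes LTA, TNF and LTB, had 44.7 and 32.0 kb in KO PMA against 2.47 and 3.13 kb in WT PMA (log2 difference 3.36, adjusted p = 0.000898). The bins from 32000001 (landmarks CYP21A2, a steroid hydroxylase, and TNXB, an extracellular matrix gene) and 32100001 (landmarks AGER, PBX2 and NOTCH4) had log2 differences of 3.08 and 3.01.

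Each of the 7 class III bins passed upward, with log2 differences from 2.77 to 3.85 and a highest adjusted p of 0.00437. Since the stretch was chosen on these values, counts over its bins describe it and are no separate test. All 7 also passed without each single library in turn (highest adjusted p 0.0336), with 1 common tag threshold (0.0222) and with the same number of regions in each list (0.0216). None passed when regions were limited to a fold of at least 6, where the log2 differences ran from -1.001 to 0.81. The sole lower bin of the band, from 25900001 at the start of the histone block, had 2.14 and 2.91 kb in KO PMA against 10.1 and 6.08 kb in WT PMA (log2 difference -1.34, adjusted p = 0.0300). The 7 bins also passed between KO mock and WT mock, but 2 to 5 of them did when a library of that comparison was left out, fewest without KO mock replicate 2. The call from 25900001 was lost without either KO PMA library or without WT PMA replicate 1. The count of changed bins was 27, and 15 without KO PMA replicate 1.

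**Figure D3:**
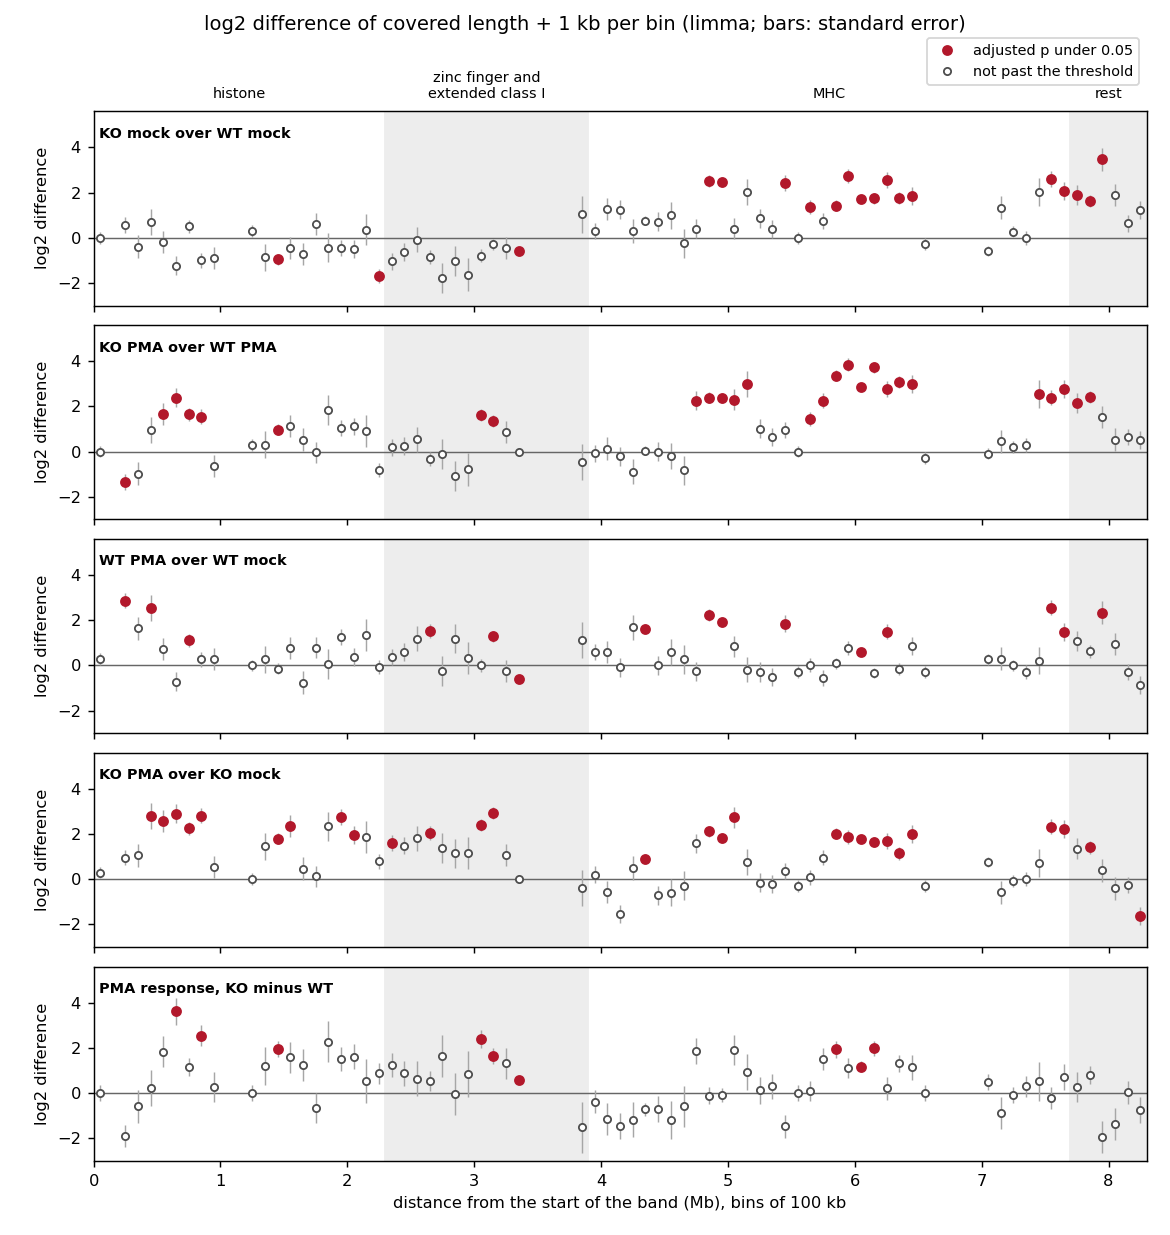
log2 difference of covered length + 1 kb in each tested 100 kb bin (vertical axis; bars are the standard error of the limma fit) against distance from the band's start in Mb, for 4 comparisons and the difference of the PMA responses; filled points passed an adjusted p of 0.05. In KO PMA over WT PMA all 7 class III bins lie between 2.77 and 3.85, and no tested class II bin passed in any of the 4 comparisons. Class II bins that start before 32700001 were covered in fewer than 2 libraries and were not tested.

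In wild-type cells a smaller share of the band's bins than of the genome's was higher with PMA. In WT PMA against WT mock, 14 of 72 bins were higher (19.4%) and 1 was lower, against 32.1% higher and 2.31% lower over the genome. The median log2 difference was 0.34 in the band and 0.66 over all bins. When each library was centred on its own median over bins, which moved the median of all bins by -0.78, 5 bins of the band were higher and 10 lower, beside 13.1% higher and 9.85% lower over the genome. The largest increases were in the histone block, from 25900001 with 10.1 and 6.08 kb in WT PMA against 0 and 0.5 kb in WT mock (log2 difference 2.86, adjusted p = 0.00420), and from 26100001, with H4C3, H2BC5 and H1-4 as landmarks, with 11.8 and 5.01 kb in WT PMA against 0.5 kb in each WT mock library (log2 difference 2.55, adjusted p = 0.0223). The call from 26100001 was lost without WT PMA replicate 1 or either WT mock library. The bins from 33200001, 33600001 and 30500001 followed with log2 differences of 2.54, 2.33 and 2.23, and the increase from 33600001 was lost without WT PMA replicate 2 or WT mock replicate 1. The 15 changed bins were 9, 7 and 8 without WT PMA replicate 2, WT mock replicate 1 and WT mock replicate 2.

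In knockout cells PMA went with more γH2AX in all 3 blocks, the histone block included. In KO PMA against KO mock, 27 of 72 bins were higher (37.5%) and 1 was lower, against 13.1% higher and 5.34% lower over the genome. The median log2 difference was 1.83 in the histone block, 1.44 in the zinc-finger block and 0.74 in the MHC block, against 0.21 over all bins. The bin from 28800001, with TRIM27 (a tripartite motif ubiquitin ligase) as landmark, had 12.8 and 11.7 kb in KO PMA against 1 and 0.5 kb in KO mock (log2 difference 2.93, SE 0.25, adjusted p = 0.00238), and this call held without any single library. The bins from 26300001 and 26500001 lie over the butyrophilin genes, which encode relatives of the B7 family that act on T cells. From 26300001, covered length was 15.6 and 9.79 kb in KO PMA against 0.5 and 1.14 kb in KO mock (log2 difference 2.90, adjusted p = 0.0110). From 26500001 it was 12.9 and 9.48 kb in KO PMA against 1 and 0.5 kb in KO mock (log2 difference 2.80, adjusted p = 0.00672).

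The bins from 26100001 and 27600001 had log2 differences of 2.79 and 2.76. In the first histone cluster, from 26100001, the libraries had 16.1 and 15.8 kb in KO PMA against 2.99 and 0.5 kb in KO mock. The sole lower bin, from 33900001, had 0 and 1 kb in KO PMA against 3.69 and 3 kb in KO mock (log2 difference -1.61, adjusted p = 0.0485). Without KO PMA replicate 1 or 2, 4 and 12 bins of the band passed in place of 28, and without KO mock replicate 1 or 2, 9 and 6. Of the named bins all but that from 28800001 missed the threshold without KO PMA replicate 1.

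The PMA response was larger in KO than in WT in part of the band. The difference of the log2 responses passed the threshold upward in 9 of 72 bins (12.5%) and downward in none, against 3.79% and 12.7% over the genome. Its median was 0.50 in the band and -0.54 over all bins. The butyrophilin bin from 26300001 had the largest difference, 3.62 (SE 0.59, adjusted p = 0.0181). Its WT PMA libraries had 1.63 and 1.5 kb, below the WT mock libraries with 4.92 and 2 kb. The bins from 26500001, 28700001, 31800001 and 31500001 differed by 2.54, 2.40, 1.99 and 1.94. Centring the libraries moved the median of all bins by 0.72 and gave 21 bins of the band, all upward, beside 8.50% upward and 2.04% downward over the genome. Uncentred, the number ran from 1 to 5 without each library whose absence moved it by more than 1.5 times: KO PMA replicates 1 and 2, KO mock replicates 1 and 2, WT PMA replicate 1 and WT mock replicates 1 and 2. Of the 9 bins, the one from 29000001 again rests on the single WT mock regions of 500 bp.

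With regions limited by fold over input, fewer bins of the band passed in every comparison. The filter left out most regions of every library, and the share of all bins passing under it is not given here. The counts thus do not show whether the fall is particular to the band. With regions of a fold of at least 6, the changed bins of the band numbered 0 of 19 in KO mock against WT mock, 2 against 15 in WT PMA against WT mock, both higher, and 0 against 28 in KO PMA against KO mock. In KO PMA against WT PMA none of the band's bins was higher and 3 were lower, in place of 26 higher and 1 lower. For the difference of the responses none was higher and 1 was lower, in place of 9 higher.

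The stretches, whose limits were chosen after their values were seen, showed how unevenly the band was covered. In class III (31500001 to 32200000), 338 and 304 kb were covered in KO PMA, 93.0 and 86.4 kb in KO mock, 22.7 and 31.8 kb in WT PMA, with 18.7 and 17.3 kb in WT mock. That is 45.9% of the stretch in KO PMA, 12.8% in KO mock, 3.89% in WT PMA and 2.57% in WT mock. In the stretch from 30500001 to 30900000, which holds PPP1R10, DHX16, MDC1, TUBB, IER3 and DDR1, coverage was 31.5% in KO PMA, 8.63% in KO mock, 5.05% in WT PMA and 1.44% in WT mock. The extended class II stretch (33100001 to 33400000), with COL11A2, RXRB, RING1, TAPBP and DAXX, was covered over 24.3% in KO PMA, 5.599% in KO mock, 3.38% in WT PMA and 0.378% in WT mock.

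Other stretches held few regions in every group. The class II stretch (32300001 to 33100000), with HLA-DRA, the HLA-DQ and HLA-DP genes and the peptide transporter genes TAP1 and TAP2, had 3.20 and 1.96 kb in KO PMA, 3.19 and 2.50 kb in KO mock, 2.17 and 1 kb in WT PMA, with 2.50 and 2.14 kb in WT mock. These are between 0.198 and 0.356% of the stretch in the group means, and the groups overlapped. No region lay among the olfactory receptor genes (29000001 to 29500000) in KO PMA or WT PMA, and at most 2 kb in any other library.

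The centromeric part of class I (31200001 to 31500000), around HLA-C, HLA-B, MICA and MICB, had 3.76% in KO PMA, 2.16% in KO mock, 0.478% in WT PMA and 0.856% in WT mock.

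**Figure D4:**
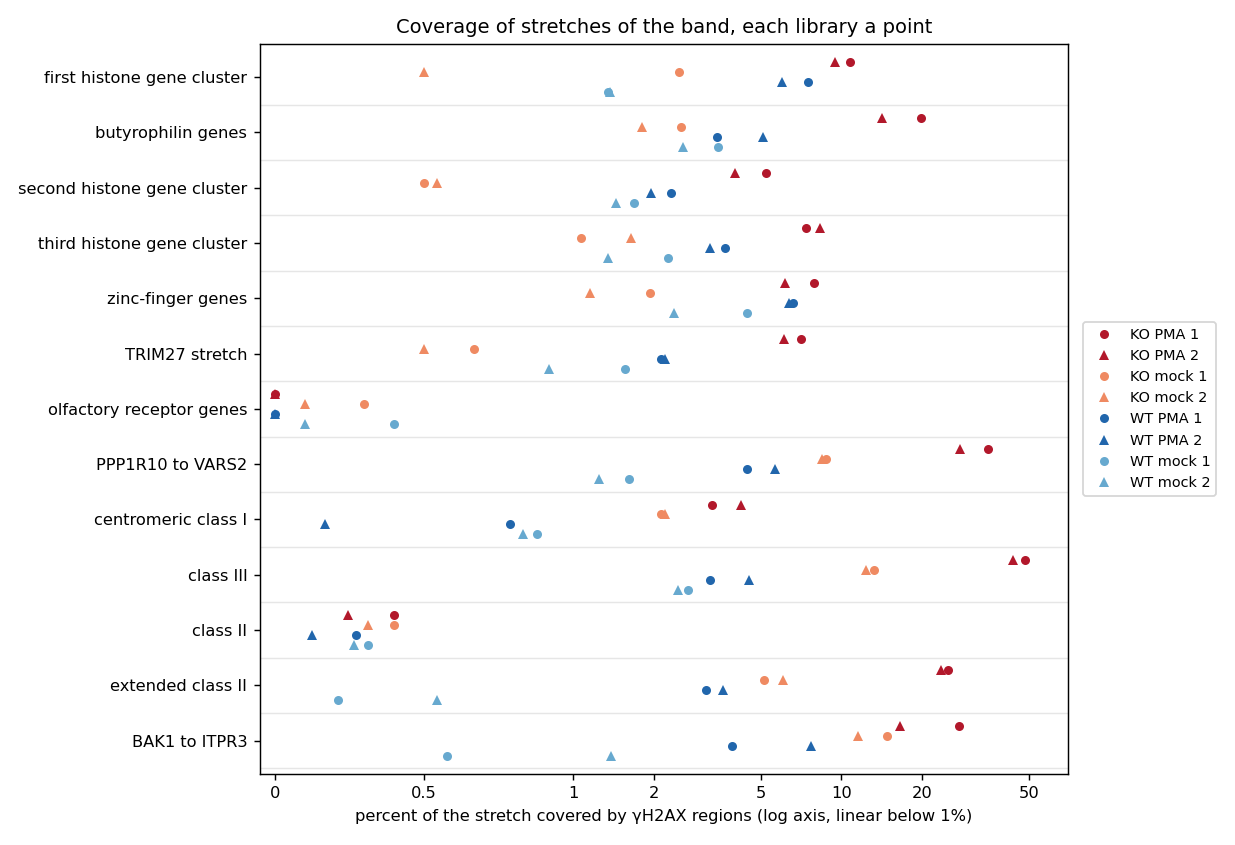
Percent of each of 13 stretches covered by γH2AX regions (horizontal axis, logarithmic above 1%), in the order of the band from top to bottom; each point is 1 library, with colours for the groups and shapes for the replicates. Class III lies near 45.9% in KO PMA and 2.57% in WT mock, while class II stays under 1% in all 8 libraries.

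Within the histone block the gene clusters and the butyrophilin genes were described one by one. The first cluster (26000001 to 26300000) had 32.3 and 28.5 kb in KO PMA, 7.44 and 1.5 kb in KO mock, 22.6 and 18.1 kb in WT PMA, with 4.05 and 4.13 kb in WT mock. Here both genotypes stood higher with PMA than with mock treatment, 6.79-fold in KO and 4.97-fold in WT. The KO value rested on the spread of KO mock, as it was 20.2-fold without KO mock replicate 1 and 4.08-fold without replicate 2. Over the butyrophilin genes (26300001 to 26600000) the values were 59.2 and 42.6 kb in KO PMA, 7.59 and 5.41 kb in KO mock, 10.3 and 15.4 kb in WT PMA, with 10.4 and 7.74 kb in WT mock. KO PMA stood apart there, while WT PMA and WT mock overlapped.

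As group means, the second cluster (27000001 to 27300000) had 13.9 kb in KO PMA, 1.57 kb in KO mock, 6.40 kb in WT PMA and 4.70 kb in WT mock. The last cluster (27700001 to 27900000) had 15.7 kb in KO PMA, 2.72 kb in KO mock, 6.92 kb in WT PMA and 3.60 kb in WT mock. KO PMA had the most in both, above every other library. In the last cluster KO mock (2.15 and 3.29 kb) overlapped WT mock (4.50 and 2.69 kb). The zinc-finger genes (28000001 to 28500000) had 39.4 and 31.0 kb in KO PMA and 33.1 and 31.9 kb in WT PMA, which overlapped, and 9.70 and 5.81 kb in KO mock against 22.2 and 11.9 kb in WT mock.

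Input density also differed along the band. In class III regions it was 8.34 and 8.32 input tags per kb and 10 M in KO PMA, 7.08 and 7.17 in KO mock, 4.82 and 5.08 in WT PMA, and 4.17 and 4.29 in WT mock. In the first histone cluster it was 4.85 and 4.54 in KO PMA, 3.44 and 2.52 in KO mock, 3.48 and 3.74 in WT PMA, and 3.06 and 2.99 in WT mock. Class III regions thus lay on denser input than those of the first histone cluster in every library, and the part of this in their coverage was not tested.

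KO PMA also had long regions in the band, the longest of them in class III. In the band, regions of at least 5 kb were 30 of 639 and 21 of 623 in KO PMA. In KO mock they were 2 of 321 and 1 of 299. None of 325 and 328 in WT PMA, or of 195 and 155 in WT mock, was this long. Over all chromosomes 665 of 42764 and 393 of 37778 regions were this long in KO PMA, and 40 of 24427 and 43 of 23989 in KO mock. There were 82 of 42423 and 42 of 36124 in WT PMA, and 66 of 14082 and 64 of 11712 in WT mock. With so few WT regions in the band, their absence was near the share over all chromosomes. The longest in the band spanned 18489 bp (31589338 to 31607827) in KO PMA replicate 2, at 3.45-fold over input and 496 tags per 10 M, and was the 4th longest of that library. KO PMA replicate 1 called 15856 bp at the same place (31590075 to 31605931), at 3.34-fold. In KO mock the longest regions, 8427 bp (31746288 to 31754715) and 7687 bp (31746380 to 31754067), lay at one place, in the bin that has MSH5, VARS1 and HSPA1A as landmarks, at 2.75-fold and 2.69-fold.

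A site was defined as overlapping regions of all libraries merged where they shared at least 1 bp, and the band held 1369 sites. Called in both libraries of a group were 262 of the 885 sites of KO PMA, 96 of 386 for KO mock, 20.9% of 484 for WT PMA and 36 of 300 for WT mock. Over all chromosomes the shares were 26.1% in KO PMA, 19.0% in KO mock, 17.5% in WT PMA and 11.1% in WT mock. A site counted as gained when called in both libraries of the first group and in neither of the other, and as lost in the reverse case. These counts carry no test.

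In KO mock against WT mock 60 sites were gained (4.38%) and 17 lost (1.24%), beside 3.74% and 1.03% over the genome. In the MHC block 38 were gained and 3 lost, and in the histone block 4 were gained and 10 lost. In KO PMA against WT PMA 134 were gained (9.79%) and 22 lost (1.61%), beside 6.8% and 4.47% over the genome. Of the gained sites 87 lay in the MHC block, 15.0% of that block's sites. In WT PMA against WT mock 58 were gained (4.24%) and 9 lost (0.657%), beside 5.92% and 0.688%. In KO PMA against KO mock 124 were gained (9.06%) and 16 lost (1.17%), beside 5.2% and 1.13%. The histone block held 46 of the gained sites, 11.3% of that block's sites.

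Few sites were called in every library. In all, 10 sites of the band (0.730%) were called in all 8 libraries, beside 0.199% of sites over all chromosomes. Of the sites called in the most libraries, 3 per block were taken, with ties settled by the lowest fold. In the MHC block, the site from 30514672 to 30523095 was covered over 7216 and 6905 bp in KO PMA, 1248 and 2933 bp in KO mock, 2000 and 1653 bp in WT PMA, and 500 and 1000 bp in WT mock. The site from 30671599 to 30683141, in the bin of MDC1, was covered over 11542 and 8137 bp in KO PMA, 2603 and 5234 bp in KO mock, 2257 and 2341 bp in WT PMA, and 500 and 1000 bp in WT mock. Its fold was 4.06 and 5.64 in KO PMA and highest in WT mock replicate 1, at 11.65.

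The site from 30857603 to 30868522, in the bin of DDR1 (a collagen receptor kinase), had 9789 and 8784 bp in KO PMA, 6439 and 7038 bp in KO mock, 500 bp in each WT PMA library, and 808 and 500 bp in WT mock. Of the zinc-finger block, 1 site of 8 libraries lay in the TRIM27 bin (28870412 to 28876240), with 3152 and 5693 bp in KO PMA against 500 bp in each KO mock library. The other 2 sites taken in that block and the 3 in the stretch after the MHC were called in 6 libraries. In the histone block the most shared sites, from 26459360 to 26462711 and from 26464661 to 26467661, both among the butyrophilin genes, were called in 7.

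Of the regions called in both libraries of a group, those with the highest lower fold of both replicates had 7.13-fold and 7.56-fold in KO PMA (26380214 to 26380714 in replicate 1, level with 1 region of the MHC block), 15.7-fold and 23.8-fold in KO mock (27710971 to 27711471), 11.6-fold and 15.3-fold in WT PMA (28102549 to 28103049), and 10.5-fold and 23.9-fold in WT mock (27300379 to 27301173). Among the 3 regions taken for KO mock was 1 in class III (31931088 to 31932323), at 6.09-fold and 8.74-fold.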

How the data were processed

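γH2AX ChIP-seq and 1 input library were made from K562 cells, and each of the 8 γH2AX lists was called against that input. Base calling with CASAVA 1.4, alignment with BWA and the build hg19 are named in the submitters' processing notes. Per the file headers, regions were called with HOMER findPeaks in histone style, in 500 bp windows at 2-fold over input, with Poisson p of 0.001 for tags and 0.0001 over input and at most 1 tag per bp. The deposited normalised signal is tags per 10 M, the deposited tag count is unscaled in 5 lists and scaled to the input's depth of 18.6 M in 3, and the deposited score, fold over input and p-value are the caller's own. Fold and input tags were used to describe and filter regions, and the p-value was not used. The score served only to rank regions where each list was cut to the same number of regions.

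Covered length is the union of regions. Bins of 100 kb were fitted with limma 3.58.1 in R 4.3.3, on the log2 of covered bp plus 1000, with the variance modelled on the mean, over bins covered in at least 2 libraries, and with all 8 libraries in 1 model; the procedure was tested on simulated data. Blocks were compared by exact permutation (Python 3.11.15, numpy 2.4.6, pandas 2.3.3). Named were, per comparison, the 5 bins past the threshold with the largest change in each direction, per block the 3 sites called in the most libraries, and per group the 3 regions of both libraries with the highest lower fold. Alternatives were other pseudocounts, bin sizes, filters, thresholds, scalings and left-out libraries. The members and lists were chosen with earlier results of these data known. The planned fit over gene windows was not run, since no hg19 annotation was used here. A stretch of the MHC block is not reported here.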

Additional observations from a re-analysis of the deposited data

Results flagged for a closer look

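The PMA response differed between KO and WT in 5 bins of the band named by the rule, by the interaction test of the limma fit. The difference of the log2 responses (KO minus WT) was 3.62 from 26300001 and 2.54 from 26500001, both among the butyrophilin genes. It was 2.40 from 28700001, 1.99 from 31800001 and 1.94 from 31500001, the last 2 in class III. Each of these lost its call without at least 5 of the 8 libraries in turn.

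Other effects pointed in opposite directions in every library of the groups compared, and their difference was not tested. The band's share of covered length had a PMA response of 0.60 (log2) in KO and -0.50 in WT, and that of the MHC block 0.57 in KO and -0.47 in WT. The zinc-finger block's share had a PMA response of 1.07 in KO and -0.66 in WT. The histone block's share had one of 1.64 in KO and -0.50 in WT. The genotype difference of the histone block (KO over WT) was 0.99 after PMA and -0.66 after mock treatment in covered length, and 0.53 after PMA and -1.61 after mock treatment in share.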

How the results depend on the processing

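Of 388 block values under the alternatives run, 370 kept their direction and 18 reversed. With a fold of at least 6, covered length reversed for the whole band in KO mock against WT mock (-0.026) and, in KO PMA against WT PMA, for the MHC (-0.070) and zinc-finger (-0.53) blocks and the MHC-to-histone ratio (-0.53). In shares, that filter gave -0.32 for the band in KO mock against WT mock and -0.37 for the MHC block in KO PMA against KO mock. One common tag threshold gave 0.081 (histone) and 0.15 (zinc finger) for KO mock against WT mock. The same number of regions per list gave -0.27 (histone), -0.43 (zinc finger) and -0.037 (band) for WT PMA against WT mock, and -0.088 (zinc finger) for KO PMA against WT PMA. Regions of at least 1000 bp gave shares in WT PMA against WT mock of 1.399 (band), 1.25 (histone), 1.38 (MHC) and 5.27 (zinc finger, against a floor, since WT mock replicate 2 had none). The ratio's value in WT PMA against WT mock ran from -0.15 to 0.20 without a library, and was -0.15 without WT PMA replicate 2 and -0.06 without WT mock replicate 1. The causes were not tested.

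Changed bins of the band numbered 19 in KO mock against WT mock, and 0 with a fold of at least 6, 32 with bins of 200 kb (in units of 100 kb), 12 in a fit of its 4 libraries, 9 with regions of at least 1000 bp and 8 to 13 without a library. They numbered 27 in KO PMA against WT PMA, 3 with that fold (all 3 lower, against 26 higher and 1 lower) and 15 to 25 without a library. In WT PMA against WT mock there were 15, and 30 (200 kb), 2 (fold), 9 (4 libraries), 6 (length), 5 (same number of regions) and 7 to 11 without a library. In KO PMA against KO mock there were 28, and 0 (fold), 18 (pseudocount 200), 14 (same number) and 4 to 12 without a library. For the difference of responses there were 9, and 16 (200 kb), 21 (centred), 1 (fold, downward, against 9 upward), 17 (pseudocount 5000), 14 (length) and 1 to 8 without a library. Sites gained were 2 with that fold and 38 with the same number of regions in KO PMA against KO mock, 3 and 64 in KO PMA against WT PMA, 2 and 36 in KO mock against WT mock, and 8 and 11 in WT PMA against WT mock. Sites lost were 2 and 10 in KO PMA against KO mock, 8 and 3 in KO PMA against WT PMA, 1 and 15 in WT PMA against WT mock, and 2 with that fold in KO mock against WT mock.

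Named bins kept direction and call in 303 of 433 values, missed the threshold in 121 and reversed in 9, all with a fold of at least 6. These were, in KO mock against WT mock, 30500001 (-0.29) and 31600001 (-0.35), in KO PMA against WT PMA 31800001 (-0.070) and 32100001 (-0.79), in WT PMA against WT mock 33600001 (-0.12), in KO PMA against KO mock 26500001 (-0.29) and 33900001 (0.14), and for the difference of responses 26500001 (-0.58) and 31800001 (-0.36).

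Replicate numbers were taken as names, since the deviations of same-numbered libraries correlated between -0.0585 and 0.164. With the replicate block the difference of responses gave 5 changed bins in place of 9, and 28 of 31 named bins kept their call. Without 1 library, the lone library of its group was assumed to vary like the others. Groups of 2 libraries, a single input and depths of 15.6 to 27.2 M tags limit what could be called.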
